A study of Homo sapiens with 24 samples.

Results

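The genes examined here encode enzymes of cholesterol and fatty acid synthesis and a few of their regulators, measured by RNA-seq in the human B-cell acute lymphoblastic leukemia line Nalm6. A list of 29 gene symbols was taken, and for each one the RefSeq accession with the highest mean count was used among the accessions that carry that symbol in the authors' symbol column. By this rule 17 of the 29 genes were found, as 17 of 64519 accessions in the count table. The symbol column lists transcripts that passed the authors' filter on low counts, so the 12 other genes had too few counts to be tested. Of the 7 genes of the early sterol steps 4 were found, of the 11 of the late sterol steps 7, of the 7 fatty acid genes 5, and of the 4 regulator and transport genes 1.

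Cells make cholesterol from acetyl-CoA through mevalonate and farnesyl diphosphate (early steps), which is joined to squalene, oxidized, closed into a ring and trimmed to cholesterol (late steps). The same acetyl-CoA is made into saturated fatty acids, which desaturases and elongases then modify. In most cells the transcription of both sets of enzymes is driven by the sterol regulatory element binding proteins, which SREBF1 and SREBF2 encode, and dividing lymphoid cells need both products for their membranes.

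Nalm6 cells were transduced with lentivirus carrying an shRNA against G9a (shG9a), against the G9a-like protein GLP (shGLP), against heterochromatin protein 1γ (shHP1γ) or against a non-specific sequence (shNS). Cells of each kind received 100 nM of the synthetic glucocorticoid dexamethasone (dex) or the same volume of ethanol for 8 h. G9a and GLP are histone methyltransferases and HP1γ is a chromatin protein that the study examined as coactivators of the glucocorticoid receptor. Each of the 8 groups had 3 biological replicates prepared on different days, which gave 24 libraries. Depletion by an shRNA lowers its target and does not remove it.

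Library totals ran from 9289533 to 14387770 counts with a median of 11132064.5. The known dex targets FKBP5 (NM_001145777) and TSC22D3 (NM_004089) rose with dex in all 4 cell lines, by 1.09 to 1.75 and by 3.23 to 3.89 on the log2 scale. By immunoblot and RT-qPCR, the study reports efficient depletion of each shRNA target in these cells. In the counts, EHMT1 was tested on 1 accession, with 18 to 50 counts a library, and CBX3 on 2, with 18 to 82 and 22 to 45. Such counts do not measure how far the targets were lowered. None of these accessions passed the limit of 0.05 for an adjusted p. EHMT1, which encodes GLP (NM_001354259), was lower by 0.65 on the log2 scale in shGLP cells in ethanol (adjusted p = 0.0923, edgeR's quasi-likelihood test). CBX3, which encodes HP1γ, had a log2 fold change of -0.50 on NM_016587 in shHP1γ cells in ethanol (adjusted p = 0.277, edgeR). On NM_007276 the change was -0.30 (adjusted p = 0.644, edgeR). Replicate 2 of dex-treated shG9a cells and replicate 1 of both shHP1γ groups stood apart from the other libraries of their groups. Their counts differed from those of their fellow replicates by a chi-square per degree of freedom of 21.6 to 43.2, against 3.69 to 13.4 in the other replicate pairs. RAG1, a marker of B-cell precursors, had 12333 to 32723 counts, IGLL1 352 to 878 and CD79A 19 to 178, while PAX5 and EBF1, with 13 and 10 accessions, had at most 6 and 7 counts. T-cell and erythroid markers had at most 3 counts, and among the 4 myeloid markers LYZ reached 338 and MPO 40.

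How many counts a gene received depended on how many RefSeq accessions it had. Among accessions whose symbol has a single accession in the table, 26.3% of 15702 were at 0 in every library, and among those whose symbol has at least 2, 73.9% of 48043. GAPDH, which is expressed in every cell and has 4 accessions, reached a mean count of 45.71 in its highest accession, while ACTB with 1 accession had 113732.42. All 6 listed genes with 1 accession (MVD, SQLE, EBP, FASN, SCD and FADS1) were found, with mean counts from 1165 to 14735. The 12 genes not found each had 2 to 10 accessions and a highest mean count of at most 3.67. They are HMGCS1, MVK, PMVK, TM7SF2, NSDHL, SC5D, DHCR7, ACLY, ELOVL6, SREBF1, INSIG1 and STARD4. Their low counts therefore do not measure their expression, and levels are not compared between genes below. All values are for the named accession alone.

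**Figure D1:**
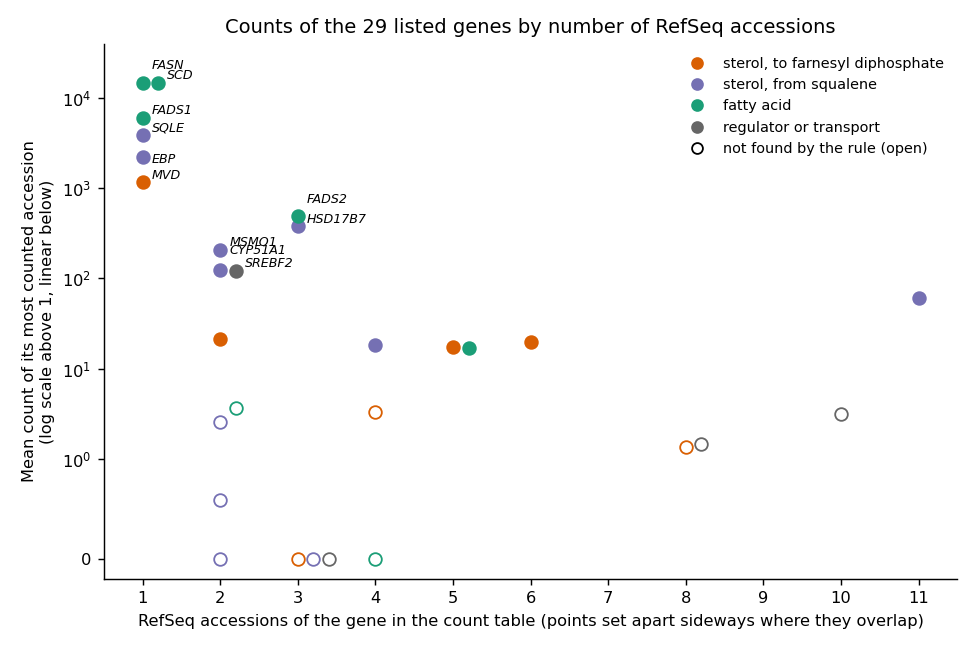
Mean count over the 24 libraries (y axis, log scale above 1) of the most counted accession of each of the 29 listed genes, against the number of RefSeq accessions of that gene in the table (x axis). Filled points are the 17 genes found by the rule and open points the 12 that were not, and the 6 genes with 1 accession all lie above 1000 counts.

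Promoter sequence is shown for 4 genes on which the results below turn, or, for SREBF2, because it holds the one sterol regulatory element match. The stretches are the 250 bases before the RefSeq transcription start, on the GRCh38.p14 build, written 5′ to 3′ on the strand of the gene, with matches to the searched motifs in capitals. SCD lies at chr10:100346983-100347232 on the plus strand, FADS1 at chr11:61817004-61817253 on the minus strand, LSS at chr21:46228775-46229024 on the minus strand and SREBF2 at chr22:41832855-41833104 on the plus strand.
SCD: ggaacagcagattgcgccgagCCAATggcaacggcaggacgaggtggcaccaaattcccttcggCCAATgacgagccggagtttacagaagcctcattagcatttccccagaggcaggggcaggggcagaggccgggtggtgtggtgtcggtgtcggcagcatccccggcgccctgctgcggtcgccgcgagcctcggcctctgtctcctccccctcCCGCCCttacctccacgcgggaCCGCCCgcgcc
FADS1: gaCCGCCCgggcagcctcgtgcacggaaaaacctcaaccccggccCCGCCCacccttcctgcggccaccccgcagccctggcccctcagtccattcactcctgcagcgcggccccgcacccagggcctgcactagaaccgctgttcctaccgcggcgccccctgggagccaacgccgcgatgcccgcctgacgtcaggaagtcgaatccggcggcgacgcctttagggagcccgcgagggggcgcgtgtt
LSS: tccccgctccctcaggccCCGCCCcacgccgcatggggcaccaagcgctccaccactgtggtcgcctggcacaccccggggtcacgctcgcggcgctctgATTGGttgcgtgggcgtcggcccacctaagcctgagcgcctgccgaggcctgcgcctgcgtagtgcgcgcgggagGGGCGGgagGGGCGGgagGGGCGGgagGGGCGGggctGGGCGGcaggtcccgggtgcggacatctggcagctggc
SREBF2: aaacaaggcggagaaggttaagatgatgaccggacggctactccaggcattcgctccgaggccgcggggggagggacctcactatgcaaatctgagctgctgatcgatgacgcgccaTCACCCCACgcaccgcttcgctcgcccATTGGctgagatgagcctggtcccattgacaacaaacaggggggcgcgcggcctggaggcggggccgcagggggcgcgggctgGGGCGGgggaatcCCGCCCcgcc

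Such a stretch was used for 13 of the 17 genes, and those of ACAT2, FDFT1, SQLE and FASN were not analysed here. On both strands, the sterol regulatory element core TCACCCCAC occurred in 1 of the 13, that of SREBF2, and in 0.35% of all 27305 stretches. Its variant TCACNCCAC, which covers the core, was in the same 1 of 13 and in 0.88% of all. CCAAT, the NF-Y box, was in 8 of 13 against 33.0% of all, and GGGCGG, the Sp1 box, in 12 of 13 against 42.3%. The SCD stretch holds CCAAT at 2 places and the LSS stretch GGGCGG at 6, while that of FADS1 holds no CCAAT. These matches are descriptions of the letters and were not tied to any change in counts.

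Dex treatment of shNS cells changed 5 of the 17 genes. Squalene epoxidase (SQLE), fatty acid synthase (FASN), stearoyl-CoA desaturase (SCD) and fatty acid desaturase FADS1 fell to means of 76.0% to 85.1% of the same day's ethanol level (n = 3 pairs), and the counted accession of lanosterol synthase (LSS) rose. A gene is called changed at an adjusted p of at most 0.05 in the quasi-likelihood test of edgeR, adjusted after Benjamini and Hochberg over 10167 accessions, with the replicate number as a block. Among all accessions tested, 4.49% were called higher and 5.46% lower. With TMM factors in place of upper quartile factors the calls over all accessions moved from 457 higher and 555 lower to 523 and 403. The 4 genes that fell are among the 6 found genes with a mean of at least 100 normalised CPM (counts scaled to a common library size), a limit chosen after the values were seen. Of the 2102 accessions at or above it, 16.5% were called lower.

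SQLE (NM_003129, chromosome 8) makes the epoxide of squalene, a controlled step of the late pathway. Its level in shNS cells was 377, 347 and 372 CPM in ethanol and 302, 272 and 293 CPM in dex. The groups did not overlap, and each dex library stood at 78.6% to 80.1% of the ethanol library of the same day. The log2 fold change was -0.34 (SE 0.05, adjusted p = 4.26e-05, edgeR). SQLE was called lower in all 8 alternative fits that were run.

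SCD (NM_005063, chr10:102106990-102124583 on GRCh37) puts the first double bond into saturated fatty acyl chains. It was at 1406, 1345 and 1565 CPM in ethanol and at 1077, 1006 and 1199 CPM in dex. All 3 dex libraries were below all 3 ethanol libraries, at 74.8% to 76.6% of the same day's value. The log2 fold change was -0.39 (SE 0.09, adjusted p = 0.00316, edgeR).

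FADS1 (NM_013402, chr11:61567099-61596790 on GRCh37), a desaturase of long polyunsaturated chains, stood at 617, 536 and 549 CPM in ethanol and 508, 460 and 479 CPM in dex. The groups again did not overlap, but the step was smaller, to 85.1% ± 2.5 of ethanol (SD, n = 3). The log2 fold change was -0.23 (SE 0.06, adjusted p = 0.0123, edgeR). The annotated span of FADS1 overlaps FADS2 on the other strand, and whether counting used the strand is not given in the sources used here.

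FASN (NM_004104, chr17:80036214-80056170 on GRCh37) builds palmitate from acetyl-CoA and malonyl-CoA. It was at 1096, 1255 and 1732 CPM in ethanol and 910, 916 and 1317 CPM in dex. Replicate 3 was the highest of its group in all 8 groups, so the ethanol and dex groups overlapped, although each dex library was below its own day's ethanol library (73.0% to 83.1%). The log2 fold change was -0.37 (SE 0.12, adjusted p = 0.0434, edgeR). Without the replicate block the calls of FASN (adjusted p = 0.571, edgeR) and FADS1 (adjusted p = 0.116, edgeR) were lost, and 3 of the 17 genes were called. With TMM factors the adjusted p of FASN was 0.0535, and over all alternatives it ran from 2.86e-06 to 0.571 (edgeR and DESeq2).

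LSS (NM_001001438, chr21:47608055-47648738 on GRCh37) closes squalene epoxide into lanosterol. Its accession received 11, 11 and 9 counts in ethanol and 31, 38 and 39 in dex, which is 0.76 to 1.01 CPM against 2.85 to 3.26 CPM. The groups did not overlap, and the log2 fold change was 1.76 (SE 0.32, adjusted p = 0.00059, edgeR). LSS exceeded the filter's 1 CPM in 2 of the 12 ethanol libraries and in 11 of the 12 dex libraries. The filter asks for 2 libraries, so LSS only just met it in ethanol. It is 1 of 4 LSS accessions, the counts were 3 to 39 over all libraries, and 2 unnamed genes overlap LSS on the other strand.

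The other 12 genes did not pass the test after dex in shNS cells. HSD17B7, which reduces the sterol ring's keto group, was at 37.8, 33.6 and 34.1 CPM in ethanol and 29.6, 30.5 and 31.8 CPM in dex, groups that did not overlap (log2 fold change -0.19, SE 0.09, adjusted p = 0.233, edgeR). EBP, the sterol isomerase, was at 196 to 209 CPM in ethanol and 174 to 195 CPM in dex, again without overlap (log2 fold change -0.14, SE 0.10). In all, 5 of the 17 genes had dex groups wholly below ethanol, against 15.6% of all accessions, and 1 wholly above, against 10.7%. The median log2 fold change of the 17 genes was -0.18, that of all accessions -0.03. SQLE, EBP, SCD and FADS1 have means of at least 100 CPM. The backgrounds for overlap and for the median here and below are not matched for depth, and the shares at that depth were not counted. By role, 0 of 4 early sterol genes, 2 of 7 late sterol genes (1 up, 1 down), 3 of 5 fatty acid genes (all down) and 0 of 1 regulator were called. The early genes had a median of 0.08, and ACAT2, IDI1 and FDPS among them had 8 to 35 counts a library. The fatty acid genes had a median of -0.32, which is the value of ACACA (SE 0.39, 9 to 34 counts a library). These medians therefore do not compare the roles.

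**Figure D2:**
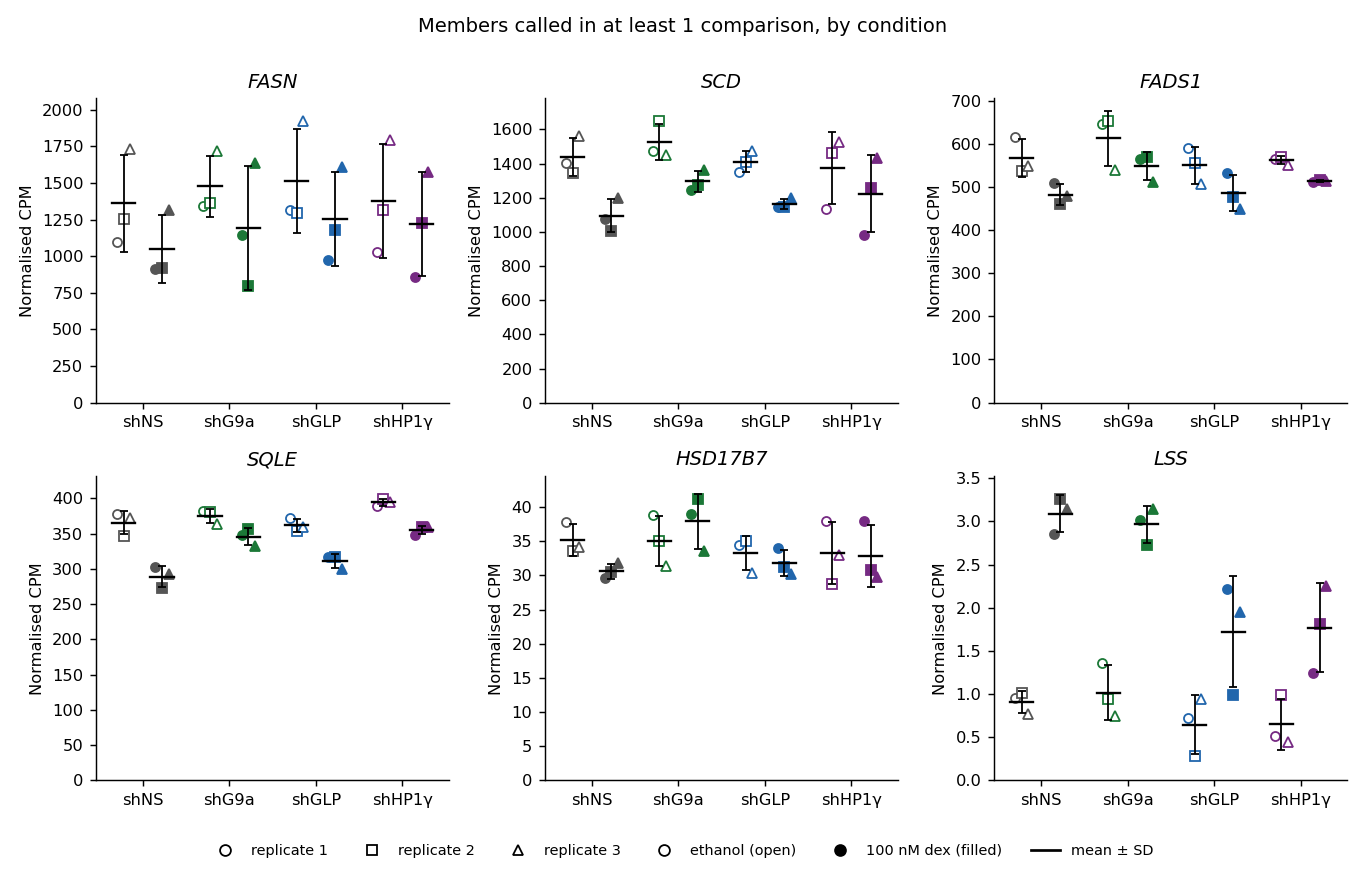
Level in normalised CPM (y axis, from 0) of the genes called in at least 1 comparison, in each of the 24 libraries, with ethanol and dex side by side for each shRNA. Points are libraries, and bars are group means with SD (n = 3). SQLE in dex-treated shNS cells, at 272 to 302 CPM, is the lowest group of that gene.

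Dex effects were also measured within each depleted line. In shG9a cells LSS was the only gene called (background 3.26% higher and 2.98% lower). In shGLP cells SQLE was (1.95% and 1.34%), and in shHP1γ cells LSS was (2.12% and 1.09%). Of the 2102 accessions with a mean of at least 100 CPM, as SQLE has, 4.85% were called lower in shGLP cells. By groups that did not overlap, LSS stood higher in each line, where the share of all accessions was 8.93%, 8.22% and 5.39%. SQLE stood lower in each, with SCD in shG9a and shGLP cells and FADS1 in shHP1γ cells, where that share was 8.26%, 9.97% and 5.27%. These 3 comparisons use no library of the shNS comparison.

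SQLE fell in shGLP cells from 372, 354 and 359 CPM to 316, 317 and 300 CPM (log2 fold change -0.22, SE 0.05, adjusted p = 0.0121, edgeR). In shG9a cells it was at 381, 381 and 363 CPM in ethanol and 348, 356 and 332 CPM in dex (log2 fold change -0.12, SE 0.05, adjusted p = 0.179, edgeR). In shHP1γ cells it was at 389, 400 and 395 CPM and then 349, 359 and 359 CPM (log2 fold change -0.15, SE 0.05, adjusted p = 0.124, edgeR). In all 4 lines the 3 dex libraries lay below the 3 ethanol libraries. They stood at a mean of 79.1% of the same day's ethanol value in shNS, 92.1% in shG9a, 86.0% in shGLP and 90.1% in shHP1γ. The call in shGLP cells was lost without the filter on low counts, without the block, without replicate 1 and without replicate 3. Its adjusted p then reached 0.485 (edgeR).

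SCD, FADS1 and FASN, followed here because they were called in shNS cells, were not called in any depleted line. They were lower in dex than in ethanol in 3 of 3 same-day pairs in each. The share of all accessions that were so was not counted. The log2 fold change of SCD was -0.24 in shG9a, -0.28 in shGLP and -0.17 in shHP1γ cells (SE 0.09 each), against -0.39 in shNS. That of FADS1 was -0.16, -0.18 and -0.13 (SE 0.06 each). That of FASN was -0.34, -0.28 and -0.18 (SE 0.12 each). In dex-treated shG9a cells FASN was at 1141, 793 and 1634 CPM, and the library at 793 CPM is the one noted above as standing apart. Without replicate 2 the FASN log2 fold change in shG9a cells was -0.14.

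LSS rose in shG9a cells from 14, 11 and 9 counts to 35, 38 and 36 (log2 fold change 1.55, SE 0.32, adjusted p = 0.00348, edgeR). In shHP1γ cells it rose from 5, 10 and 5 counts to 14, 24 and 24 (log2 fold change 1.44, SE 0.39, adjusted p = 0.0369, edgeR). In shGLP cells the counts were 7, 3 and 10 in ethanol and 21, 11 and 21 in dex (log2 fold change 1.39, SE 0.39, adjusted p = 0.0534, edgeR). The groups did not overlap in CPM in any line. The call in shHP1γ cells was lost without the block, with counts summed over the gene's accessions, and without any 1 of the 3 replicates, including replicate 1, whose libraries stood apart.

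**Figure D3:**
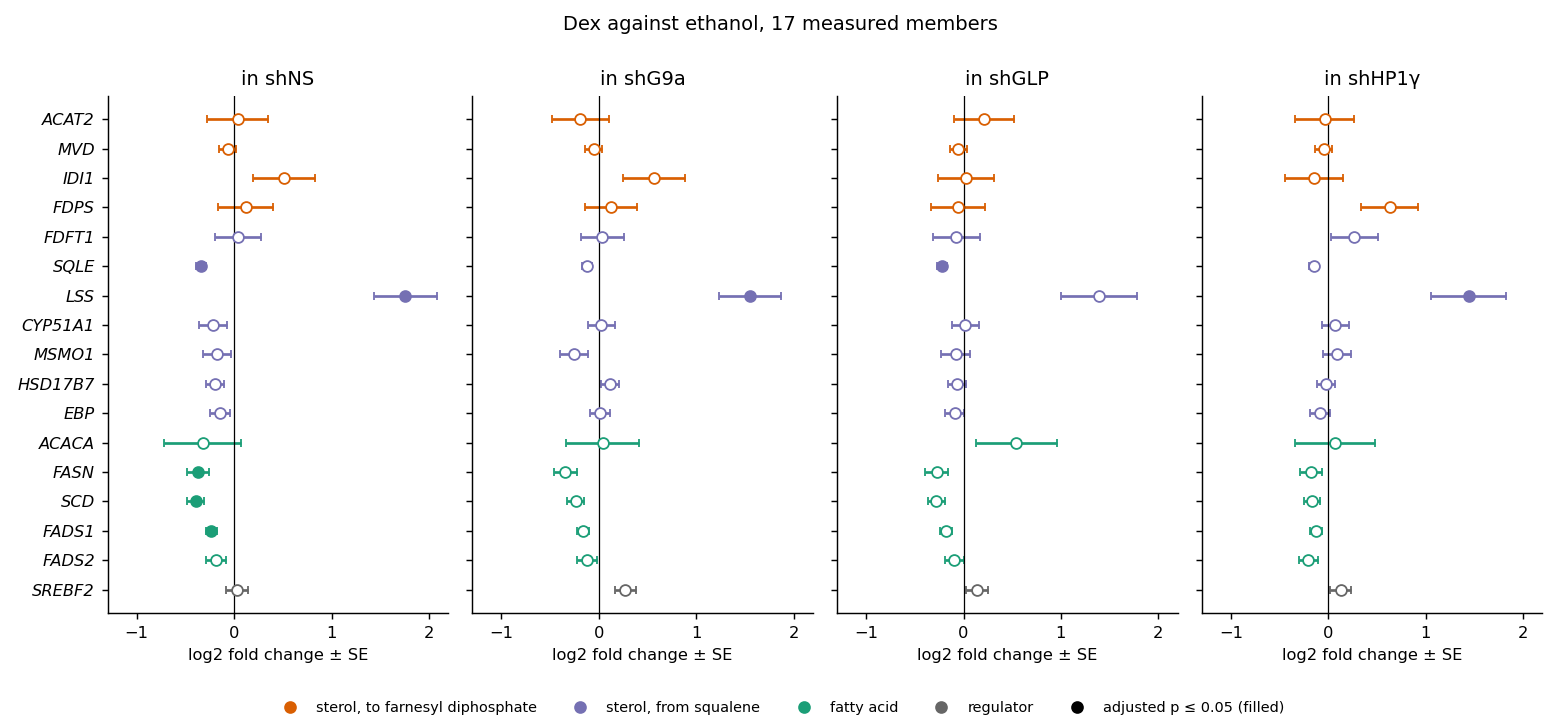
Log2 fold change of dex against ethanol (x axis) with its standard error, for the 17 found genes in each of the 4 cell lines. Filled points were called at an adjusted p of at most 0.05. SQLE, SCD, FADS1 and FASN lie left of 0 in every line and LSS lies right of 0 at 1.39 to 1.76.

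In ethanol, 0 of the 17 genes were called in shG9a, shGLP or shHP1γ cells against shNS by edgeR. Among all accessions 3.73%, 3.61% and 2.91% were called in either direction, so a count of 0 among 17 is near the background. DESeq2 called 0 of the 12, 14 and 12 genes to which it gave an adjusted p. At an unadjusted p under 0.05 edgeR gave 0, 1 and 2 genes, against 15.2%, 13.1% and 14.4% of all accessions. IDI1, the isopentenyl diphosphate isomerase, was at 0.87, 1.29 and 1.61 CPM in shNS, at 1.74, 2.40 and 2.36 CPM in shGLP and at 1.64, 2.57 and 1.87 CPM in shHP1γ cells, from 10 to 26 counts a library. Groups lay wholly above shNS for ACAT2 with shG9a, for IDI1 and FDPS with shGLP, and for IDI1 and SQLE with shHP1γ, against 7.56%, 9.53% and 7.72% of all accessions. MSMO1 with shHP1γ lay wholly below (6.9% of all), and no gene did with shG9a (11.6%) or shGLP (8.74%). SQLE was at 389 to 400 CPM in shHP1γ and 347 to 377 CPM in shNS cells (log2 fold change 0.11, SE 0.05, adjusted p = 0.297, edgeR). With TMM factors the calls over all accessions in shG9a cells moved from 162 higher and 217 lower to 191 and 143. The median log2 fold change of the 17 genes with shG9a was 0.09, that of all accessions -0.02. Under upper quartile, TMM and DESeq2 scaling 12, 14 and 13 of the 17 lay above 0, against 45.5%, 52% and 50.4% of all accessions. With shGLP 9, 8 and 8 lay above 0, and with shHP1γ 7, 7 and 7.

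In dex-treated cells 2 genes were higher in shG9a than in shNS cells (SQLE and HSD17B7), 1 was higher in shHP1γ cells (SQLE) and none was called in shGLP cells. No gene of the 17 was called lower. Among all accessions 4.38% were called higher and 4.43% lower with shG9a, 3.31% and 2.46% with shGLP, and 2.55% and 1.54% with shHP1γ. Of the 2102 accessions with a mean of at least 100 CPM, as SQLE has, 8.28%, 6.57% and 3.95% were called higher. With DESeq2 the calls over all accessions with shHP1γ moved from 259 higher and 157 lower to 203 and 246. The 3 comparisons share the 3 dex-treated shNS libraries, so their values are given side by side and are not independent. These shNS libraries are also those of the dex effect above.

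SQLE in dex was at 302, 272 and 293 CPM in shNS cells, and at 348, 356 and 332 CPM in shG9a cells (log2 fold change 0.26, SE 0.05, adjusted p = 0.00184, edgeR). In shHP1γ cells it was at 349, 359 and 359 CPM (log2 fold change 0.30, SE 0.05, adjusted p = 0.000639, edgeR). All 6 of these libraries were above all 3 shNS libraries, including those that stood apart. In shGLP cells it was at 316, 317 and 300 CPM, which overlapped shNS (log2 fold change 0.11, SE 0.05, adjusted p = 0.29, edgeR). Both calls were lost without replicate 3 (adjusted p = 0.0551 and 0.0688, edgeR). That with shG9a was also lost without replicate 2, whose dex library stood apart (adjusted p = 0.0625, edgeR), and that with shHP1γ without the filter on low counts (adjusted p = 0.208, edgeR).

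HSD17B7 (NM_016371, chr1:162760492-162782613 on GRCh37) in dex was at 29.6, 30.5 and 31.8 CPM in shNS and at 39.0, 41.2 and 33.5 CPM in shG9a cells (log2 fold change 0.30, SE 0.09, adjusted p = 0.041, edgeR). The highest of these, replicate 2 of shG9a, is the library that stood apart, and replicate 3 exceeded the highest shNS library by the least. The call was lost without the block (adjusted p = 0.162, edgeR), without the filter on low counts (adjusted p = 0.137, edgeR) and without any 1 replicate. Without replicate 2 the adjusted p was 0.282 (edgeR), and over all alternatives it ran from 0.0303 to 0.282 (edgeR and DESeq2). HSD17B7 has a pseudogene copy, and reads shared with it could make its counts uncertain. In shGLP cells it was at 30.3 to 34.0 CPM and in shHP1γ cells at 29.7 to 38.0 CPM, and both overlapped shNS.

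Of the genes not called in dex with shG9a, SCD was at 1248, 1275 and 1365 CPM against 1077, 1006 and 1199 CPM in shNS (log2 fold change 0.24, SE 0.09, adjusted p = 0.08, edgeR). FADS1 was at 564, 568 and 510 CPM against 508, 460 and 479 CPM (log2 fold change 0.18, SE 0.06, adjusted p = 0.0601, edgeR). CYP51A1, the lanosterol demethylase, was at 12.1, 10.6 and 12.5 CPM against 10.1, 9.19 and 8.72 CPM (log2 fold change 0.33, SE 0.14, adjusted p = 0.15, edgeR). With shG9a, 6 of the 17 genes had groups wholly above shNS (FDPS, SQLE, CYP51A1, HSD17B7, SCD and FADS1), against 10.6% of all accessions. With shGLP it was 2 and with shHP1γ 3, against 11.9% and 9.27%. Wholly below lay 0 with shG9a, and LSS alone with shGLP and with shHP1γ, against 10.2%, 8.92% and 6.41%.

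The median log2 fold change of the 17 genes in dex was 0.18 with shG9a, 0.11 with shGLP and 0.09 with shHP1γ, where the medians of all accessions were 0.00, 0.03 and 0.03. In the shG9a comparison 15 of 17 lay above 0 under upper quartile, TMM and DESeq2 scaling alike. With shHP1γ the count above 0 was 16, 14 and 11 under these scalings, and with shGLP 15, 13 and 13. Of all accessions 50.4%, 52.1% and 50.3% lay above 0 with shG9a, 56.0%, 52.1% and 49.1% with shHP1γ, and 56.6%, 51% and 50.3% with shGLP. Without the filter on low counts the median was 0.01 with shHP1γ (10 of 17 above 0, against 46.5% of all accessions). With shGLP the median was 0.06 without the filter (13 of 17, against 52.3%) and 0.05 without replicate 2. LSS was below shNS in shGLP cells (log2 fold change -0.86, SE 0.29, adjusted p = 0.0993, edgeR) and in shHP1γ cells (-0.80, SE 0.29, adjusted p = 0.134, edgeR). It was at 0.99 to 2.26 CPM there, against 2.85 to 3.26 CPM in shNS. In ethanol too the median of the 17 genes lay above 0 with shG9a (0.09, given above).

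**Figure D4:**
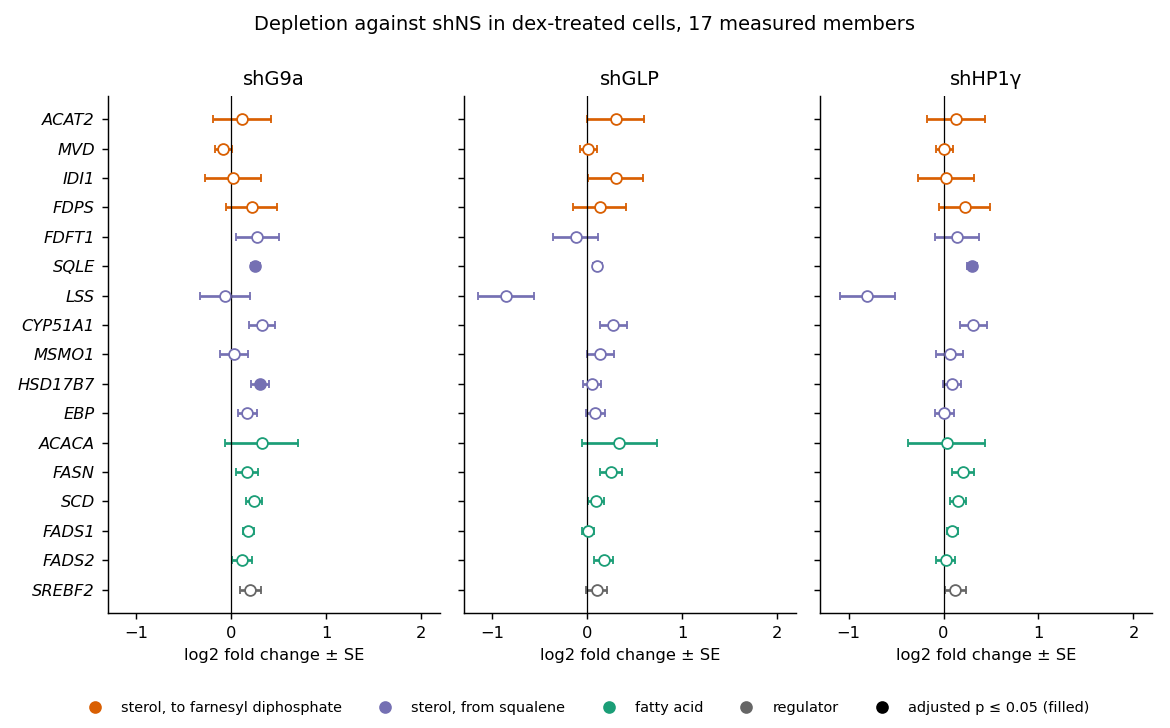
Log2 fold change of each depletion against shNS in dex-treated cells (x axis) with its standard error, for the 17 found genes. Filled points were called: SQLE with shG9a (0.26) and with shHP1γ (0.30), and HSD17B7 with shG9a (0.30).

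Whether the dex effect itself differed between a depleted line and shNS was tested with the interaction term, and 0 of the 17 genes were called by edgeR. DESeq2 called 0 of the 11, 11 and 12 genes to which it gave an adjusted p with shG9a, shGLP and shHP1γ. Of all accessions 0.0885%, 0.118% and 0.0197% were called with shG9a, shGLP and shHP1γ. At an unadjusted p under 0.05 edgeR gave 2, 0 and 1 genes, against 6.75%, 3.89% and 3.81% of all accessions. The dex effect on SQLE was less negative by 0.22 on the log2 scale in shG9a cells (SE 0.07, adjusted p = 0.615, edgeR), by 0.19 in shHP1γ cells (SE 0.07, adjusted p = 1, edgeR) and by 0.12 in shGLP cells (SE 0.07). That on HSD17B7 in shG9a cells differed by 0.31 (SE 0.13, adjusted p = 0.655, edgeR). The larger step of SQLE in shNS cells is thus not shown to differ from that in the depleted lines.

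The remaining genes varied little or had few counts. SREBF2, which encodes the regulator of the sterol genes, was counted on a non-coding accession (NR_103834) at 8.42 to 14.6 CPM, so its coding transcript was not measured. Its mean was 10.3 CPM in ethanol and 10.6 CPM in dex in shNS cells (log2 fold change 0.03, SE 0.11), and 10.1 and 12.2 CPM in shG9a cells (0.27, SE 0.11, adjusted p = 0.158, edgeR). ACACA, acetyl-CoA carboxylase and the entry step of fatty acid synthesis, had 9 to 34 counts a library on the 1 accession tested. MVD, mevalonate diphosphate decarboxylase, ranged from 90.8 to 122 CPM and FADS2, another desaturase, from 36.4 to 52.7 CPM. MSMO1, the sterol methyl oxidase, had 151 to 272 counts a library, and FDFT1, squalene synthase, at 3.17 to 7.34 CPM. ACAT2, IDI1 and FDPS of the early pathway had 8 to 35 counts a library.

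Of 45 further genes of lipid supply, transport and regulation that were listed beside the 29, 26 could be tested. After dex 4 rose and 1 fell in shNS (4.49% and 5.46% of all accessions), and 3 rose and 0 fell in shG9a cells (3.26% and 2.98%). In shGLP cells 1 rose and 1 fell (1.95% and 1.34%), and in shHP1γ cells 2 rose and 1 fell (2.12% and 1.09%). In ethanol 1 was lower with shG9a, 0 were called with shGLP and 2 were lower with shHP1γ, where 3.73%, 3.61% and 2.91% of all accessions were called in either direction. In dex 2 were lower with shG9a, 0 were called with shGLP and 1 was lower with shHP1γ, against 4.43%, 2.46% and 1.54% of all called lower. Those called at least 2 times were ABCA1, MLXIP, HACD3, NPC2 and HSD17B12.

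ABCA1, the exporter of cellular cholesterol, was at 73.9, 58.6 and 68.0 CPM in shNS cells in ethanol and 35.6, 39.7 and 35.6 CPM in shG9a cells. The groups did not overlap (log2 fold change -0.84, SE 0.14, adjusted p = 0.00083, edgeR). In dex it was at 96.2, 88.3 and 95.5 CPM in shNS and 44.8, 41.8 and 53.0 CPM in shG9a (log2 fold change -1.004, SE 0.14, adjusted p = 4.37e-05, edgeR). Dex raised it by 0.49 on the log2 scale in both shNS and shHP1γ cells (adjusted p = 0.0211 and 0.0463, edgeR). In shGLP cells it went with dex from 72.8, 78.1 and 79.0 CPM to 103, 105 and 107 CPM without a call. The rise in shG9a cells was not called either. In ethanol its mean was 76.6 CPM in shGLP and 78.1 CPM in shHP1γ cells against 66.8 CPM in shNS. Replicate 1 of shHP1γ, which stood apart, was the highest of its group at 104 and 141 CPM. The lower level with shG9a was not called in ethanol without replicate 3 (adjusted p = 0.125, edgeR). The dex call in shNS was lost without the block, without replicate 2 and without replicate 3 (adjusted p = 0.0856, 0.113 and 0.27, edgeR), and that in shHP1γ also with TMM factors (adjusted p = 0.055, edgeR).

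MLXIP, a glucose-responsive transcription factor, rose with dex in all 4 lines, by 0.36, 0.28, 0.25 and 0.26 on the log2 scale in shNS, shG9a, shGLP and shHP1γ cells. In shNS it went from 801, 837 and 944 CPM to 1054, 1041 and 1224 CPM (adjusted p = 9.45e-05, edgeR). In dex it was lower with shG9a than with shNS, by 0.24 on the log2 scale (adjusted p = 0.00887, edgeR). HACD3, a dehydratase of fatty acid elongation, fell with dex in shNS from 443, 428 and 421 CPM to 356, 361 and 349 CPM (log2 fold change -0.28, SE 0.05, adjusted p = 0.000209, edgeR). It also fell in shGLP and shHP1γ cells, by 0.20 in each, and it was lower with shHP1γ than with shNS in ethanol, by 0.18.

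HSD17B12, the reductase of fatty acid elongation, was lower with shHP1γ than with shNS in ethanol and in dex. Its levels in ethanol were 149, 155 and 156 CPM against 184, 174 and 179 CPM (log2 fold change -0.22, SE 0.06, adjusted p = 0.0361, edgeR). In shGLP cells it was at 162, 156 and 153 CPM in ethanol, without a call. In dex its mean was 154 CPM in shGLP and 155 CPM in shG9a cells against 175 CPM in shNS, also without a call. NPC2, which moves cholesterol out of lysosomes, rose with dex by 0.26 in shNS cells (adjusted p = 0.037, edgeR) and by 0.28 in shG9a cells (adjusted p = 0.04, edgeR). In dex-treated shG9a cells it was at 105, 126 and 92.3 CPM, and replicate 2, which stood apart, was the highest of all 24 libraries. Without replicate 2 that call was lost (log2 fold change 0.20, adjusted p = 0.255, edgeR). Both NPC2 calls were also lost without the block (adjusted p = 0.202 and 0.203, edgeR), without the filter on low counts, and without any 1 replicate.

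**Figure D5:**
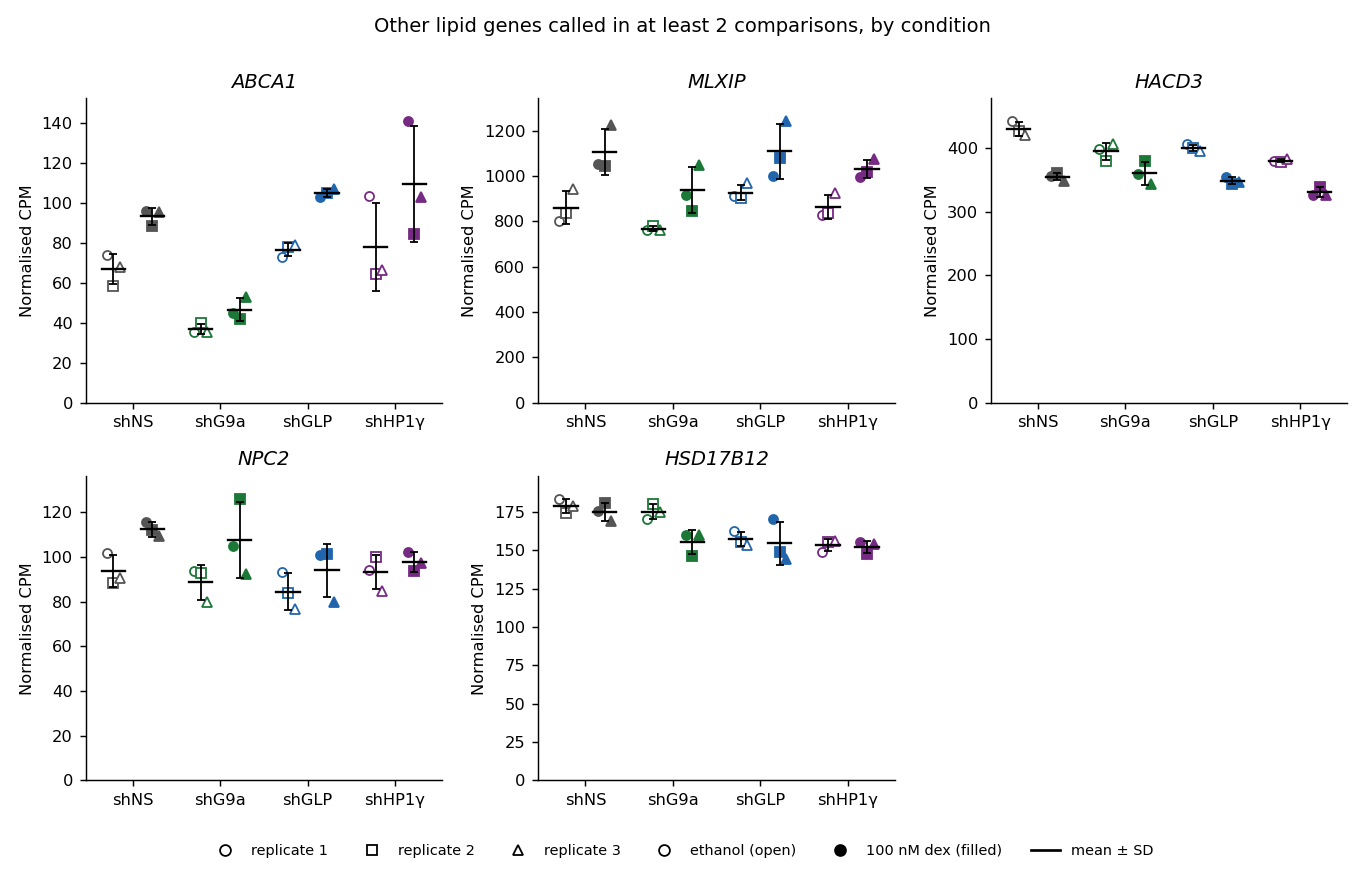
Level in normalised CPM (y axis, from 0) of further lipid genes called in at least 2 comparisons, in each of the 24 libraries by shRNA and treatment. ABCA1 in shG9a cells, at 35.6 to 53.0 CPM, lies below the other 3 lines in both treatments.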

How the data were processed

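RNA of 24 Nalm6 libraries was sequenced. According to the labels and the study's methods, the authors aligned trimmed reads by HISAT2 to the hg19 build (GRCh37). They quantified known RefSeq genes with GenomicAlignments, and the rows of the table are RefSeq accessions. The counting mode, strand setting and RefSeq release are not given in the sources used here. The deposited table carries CPM in its name and holds whole-number counts, used as raw counts. The authors' log2 fold changes and FDR values were not used, and their table served only for its symbols. For other symbols the RefSeq gene table was matched: 774 of the 64519 accessions stayed without a symbol. No column of an unknown sample was present.

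Counts were tested with edgeR 4.0.16 in R 4.3.3 (quasi-likelihood F test, upper quartile factors, accessions with more than 1 CPM in at least 2 libraries, Benjamini-Hochberg over 10167 accessions, all 24 libraries in one fit). In place of the authors' removal of unwanted variation, the replicate number, which the labels tie to different days, was a block. Deviations from the group means correlated between same-numbered libraries at 0.055 to 0.535 for number 1, 0.012 to 0.275 for number 2 and 0.19 to 0.412 for number 3. CPM values are counts scaled by the library total and the upper quartile factor. For genes with few counts precision is limited by counting. A count of 3 or fewer in a library was taken as the limit of detection, and errors of single counts cover counting only. SE is the standard error of the log2 fold change. The fit was also run on simulated counts, for shG9a against shNS in dex alone. Those counts held no differences between days and no library that stood apart, so they do not test the fit under these. Alternatives were TMM factors, DESeq2 1.42.0, no filter, no block, counts summed per gene and leaving out each replicate.

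The members and lists were chosen with earlier results of these data known. Named were the regulators and entry enzymes, the 8 genes ranked by number of calls and then by adjusted p (6 had a call, CYP51A1 and SREBF2 had 0), the extreme called gene of each comparison and other lipid genes called in at least 2 comparisons. EBP, IDI1 and the genes named only for groups that did not overlap were singled out after their values were seen. EHMT2 is not analysed here, and promoter stretches come from RefSeq (GRCh38.p14).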

Additional observations from a re-analysis of the deposited data

Results flagged for a closer look

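Some accessions of the listed genes held counts that no comparison above used, since each gene was measured on its most counted accession or was not found. The 7 named here had a mean above 3 counts over the 24 libraries, the limit taken for detection. FDFT1 had a second accession (NM_001287750) with a mean of 25.8 counts, 18 to 35 a library, and group means from 23.0 to 31.3. FDFT1 NM_001287747 had a mean of 4.25, LSS NM_001145437 one of 4.42 and FADS2 NM_001281501 one of 4.75. Among genes not found by the rule, PMVK NM_001323011 had a mean of 3.29, ELOVL6 NM_024090 one of 3.67 and STARD4 NM_001308059 one of 3.13.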

How the results depend on the processing

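The 11 called results were refitted under the 8 alternatives in 87 fits, of which 60 gave the same call, 27 the same direction without passing the limit, and 0 the other direction. Without the replicate block 3 genes were called after dex in shNS, 0 in shGLP and 0 in shHP1γ, and 1 with shG9a against shNS in dex. The other counts of called genes did not change beyond 1.5 times. Without the filter on low counts the count was 3 after dex in shG9a, 3 in shGLP (SQLE not among them), and 0 with shHP1γ against shNS in dex. With counts summed per gene it was 0 after dex in shHP1γ, and with DESeq2 it was 4 with shG9a in dex. Leaving out 1 replicate gave 2 to 5 called genes after dex in shNS, 0 to 2 in shG9a, 0 to 1 in shGLP, 0 in shHP1γ, 0 to 2 with shG9a in dex and 0 to 1 with shHP1γ in dex. Leaving out replicate 3 lost 9 of the 11 calls, all but LSS and SQLE after dex in shNS. Calls over all accessions fell with it, from 1012 to 309 after dex in shNS and from 895 to 166 with shG9a in dex, and without the block to 518 and 320. DESeq2 gave an adjusted p to 11 to 17 of the 17 genes, and to LSS after dex in shG9a it gave none. FADS1 with shGLP in dex, at 0.01 on the log2 scale, was -0.0174 with TMM, -0.0205 with DESeq2, -0.0348 without the filter and -0.0025 summed per gene, and ran from -0.0195 to 0.0567 when 1 replicate was left out. The causes were not tested. Depth limits the genes under 50 counts a library (LSS, ACACA, ACAT2, IDI1 and FDPS), and 12 of the listed genes, all with several accessions, could not be measured.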
